A study of Mus musculus with 6 samples.

Results

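The AP-1 family comprises transcription factors that bind DNA as pairs of basic leucine zipper (bZIP) proteins. The genes described here were 10 chosen members, Fos, Fosb, Fosl1 and Fosl2 of the Fos family, Jun, Junb and Jund of the Jun family, and Atf3, Batf and Batf3. They were found by their symbols among the 24411 genes listed for mouse macrophages, and all 10 passed the filter on low counts that left 11692 genes for testing. Macrophages derived from bone marrow monocytes sorted as LFA1-hi Itgam-hi were compared with those derived from LFA1-lo Itgam-lo cells, with 3 libraries of each (called LFA1-hi and LFA1-lo). All came from C57BL/6 mice, with no genetic change or added stimulus stated. LFA1 and Itgam are leukocyte adhesion receptors that were used to sort the monocytes with a fluorescence-activated cell sorter. Both subsets then received M-CSF, a cytokine that promotes macrophage survival and maturation, at 20 ng/ml in RPMI with 10% serum over 7 days, and the medium was changed on day 4. The names therefore describe the monocytes before culture, not the macrophages measured.

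Jun proteins pair with each other or with Fos proteins, whereas Fos proteins need a Jun partner to bind DNA well. The pairs recognise the TPA response element TGACTCA (TRE) or the related cyclic AMP response element TGACGTCA (CRE). Fos, Fosb, Jun, Junb and Atf3 are early response genes, induced within minutes by growth factors, adhesion or stress through mitogen-activated protein kinases (MAP kinases). Batf and Batf3 pair with Jun proteins and bind beside interferon regulatory factors, and they are best known from lymphocytes and dendritic cells.

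In LFA1-hi macrophages 5 of the 10 genes were lower, namely Fos, Junb, Atf3, Fosl2 and Jund, by 1.79-fold to 2.72-fold. Jun alone was called higher, by 1.24-fold, and Fosb, Fosl1, Batf and Batf3 did not pass the test. Calls were made at a Benjamini-Hochberg adjusted p under 0.05 over all tested genes in edgeR's quasi-likelihood test. At that threshold 15.6% of all tested genes were lower in LFA1-hi and 16.1% were higher, 31.7% in all. For 6 of the 10 genes every LFA1-hi library lay on the same side of every LFA1-lo library (5 lower, 1 higher). The same held for 47.8% of all tested genes, 22.9% lower and 24.8% higher in LFA1-hi. The median log2 fold change of the 10 genes was −0.57, beside −0.0047 over all tested genes. These are bulk libraries, so fewer cells of a type with the transcript and less transcript per cell cannot be told apart.

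Library totals ran from 15191262 to 17614509 expected counts in LFA1-hi and from 16404922 to 17115544 in LFA1-lo. LFA1-lo replicate 2 was the least like its own group (Pearson correlations of log2 CPM, counts scaled by library size, of at most 0.978, against 0.985 between the other LFA1-lo libraries and at least 0.990 within LFA1-hi). Separate mice or separate cultures are not stated for the libraries of a group, so the p-values reflect only how these samples scatter, which may be technical. All 8 macrophage markers (Csf1r, Adgre1, Cd68, Mertk, Fcgr1, Cd14, Lyz2 and Itgam) passed the filter, with a summed level of 13850 to 16147 CPM in LFA1-hi and 17747 to 23026 CPM in LFA1-lo. Of these 5 were lower in LFA1-hi and 3 did not pass. Most of the sum was Lyz2 (9704 ± 963 CPM in LFA1-hi and 12918 ± 2381 CPM in LFA1-lo, mean ± SD). Lyz2 was 1 of the 5, but its groups overlapped and its adjusted p was 0.04996.

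To show the sequence before genes that moved differently, the 150 bases just upstream of the annotated start sites of Fos, Junb, Atf3 and Jun follow, 5′ to 3′ in the direction of transcription, from RefSeq on GRCm38.p6. Capitals mark TGACG, the first 5 bases of the CRE, and TGACATCA, which differs from the CRE by 1 base, on either strand.
Fos, chr12:85473740-85473889, plus strand: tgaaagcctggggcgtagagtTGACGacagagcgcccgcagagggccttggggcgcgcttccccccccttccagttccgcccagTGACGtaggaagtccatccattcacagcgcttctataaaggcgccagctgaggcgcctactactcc
Junb, chr8:84978749-84978898, minus strand: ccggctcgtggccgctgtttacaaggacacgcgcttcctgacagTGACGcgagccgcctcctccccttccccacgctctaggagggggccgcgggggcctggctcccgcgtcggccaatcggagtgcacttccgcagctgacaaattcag
Atf3, chr1:191183334-191183483, minus strand: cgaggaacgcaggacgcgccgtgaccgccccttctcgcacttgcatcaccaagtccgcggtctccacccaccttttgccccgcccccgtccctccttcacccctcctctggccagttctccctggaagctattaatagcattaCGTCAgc
Jun, chr4:95052223-95052372, minus strand: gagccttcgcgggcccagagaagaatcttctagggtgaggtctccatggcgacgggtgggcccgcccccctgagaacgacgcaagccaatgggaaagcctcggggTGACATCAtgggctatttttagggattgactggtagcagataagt
The search covered 250 bases before to 50 bases after each start, for 9 of the 10 genes, with Fosl1 not analysed here. TGACATCA occurred upstream of Jun, 45 bases before the start, and in none of the other 8, and it was in 3.62% of 32851 promoters. TGACG occurred in 5 of the 9, 129 and 66 bases before the start of Fos, 106 bases before Junb, 7 bases before Atf3 on the other strand (CGTCA), and in Fosb and Batf. It was in 20.8% of all promoters. TGACTCA (5.2% of all promoters), TGACGTCA (1.79%, which always contains TGACG) and the CArG box (1.63%) were found in 0 of the 9 windows. The GC box GGGCGG was in 7 of the 9 and in 35.7% of all promoters. Sites outside these windows were not searched.

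Fos (GRCm38 chromosome 12, 85473890 to 85477274) encodes c-Fos, the first described member of its family. Its level was 58.7, 54.1 and 56.9 TPM in LFA1-hi replicates 1, 2 and 3, against 149, 201 and 116 TPM in the LFA1-lo replicates. TPM are relative transcript abundances after division by effective length, so they can be compared between genes. The groups did not overlap, and the LFA1-hi libraries lay much closer together than the LFA1-lo libraries. In counts Fos was 2.72-fold lower in LFA1-hi (−1.44 on the log2 scale, SE 0.20, 95% interval −1.90 to −0.98, adjusted p = 0.00136).

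Fosl2 (chromosome 5, 32136472 to 32157840) encodes Fra-2, a Fos relative without the strong activation domain of c-Fos. It was at 25.4, 25.5 and 26.0 TPM in LFA1-hi and at 48.8, 54.1 and 39.5 TPM in LFA1-lo. The LFA1-hi libraries were nearly level with each other, with a coefficient of variation in CPM of 3.27%, against 17.3% in LFA1-lo. Fosl2 was 1.83-fold lower in LFA1-hi (−0.87, SE 0.12, 95% interval −1.14 to −0.60, adjusted p = 0.000842).

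The other Fos genes were scarce. Fosb (chromosome 7, 19302696 to 19310118), another early response gene, stood at 0.96, 1.28 and 1.65 TPM in LFA1-hi and 2.31, 1.35 and 0.81 TPM in LFA1-lo. Its groups overlapped, with LFA1-lo holding both the highest and the lowest library (log2 fold change −0.17, 95% interval −1.10 to 0.76, adjusted p = 0.781). Fosl1 (chromosome 19, 5447698 to 5455938), which encodes Fra-1, was at 5.56, 4.26 and 3.42 TPM in LFA1-hi and 3.11, 8.87 and 4.53 TPM in LFA1-lo. LFA1-lo replicate 2 was its highest library and LFA1-lo replicate 1 its lowest (−0.30, 95% interval −1.22 to 0.61, adjusted p = 0.610). Both intervals allow a difference of more than 1.5-fold either way. Fosl1 overlaps Ccdc85b on the other strand and its expected counts were not whole, so reads may be shared. Ccdc85b itself did not pass the test (−0.20, adjusted p = 0.527).

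**Figure D1:**
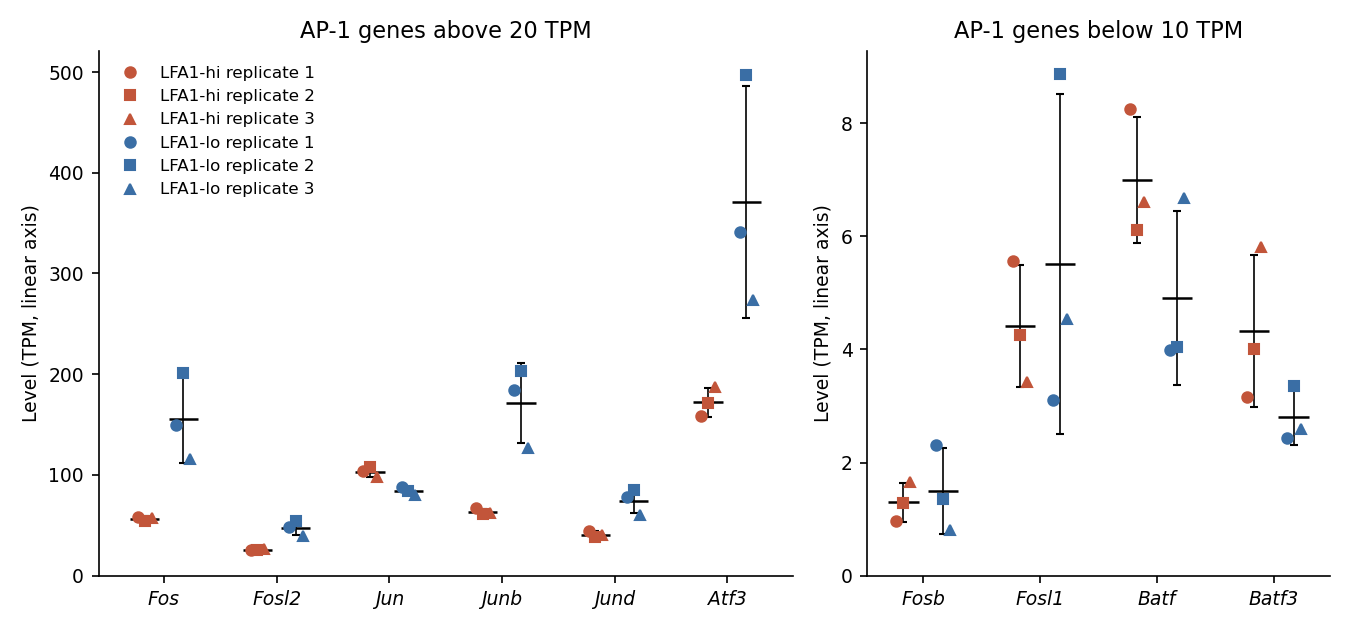
Levels of the 10 AP-1 genes in TPM on linear axes, with LFA1-hi libraries (red) left of LFA1-lo libraries (blue), symbols for replicates, and black lines for the mean ± SD of 3 libraries. Fos, Fosl2, Junb, Jund and Atf3 lie lower in every LFA1-hi library, Jun lies slightly higher (97.7 to 107 against 80.0 to 88.2 TPM), and the scarce genes on the right overlap between the groups.

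Within the Jun family the members moved in opposite directions. Junb (chromosome 8, 84976909 to 84978748) encodes JunB, which can restrain c-Jun on some promoters. It was at 67.1, 60.8 and 62.3 TPM in LFA1-hi and at 184, 203 and 127 TPM in LFA1-lo, with every LFA1-lo library above every LFA1-hi library. Junb was 2.67-fold lower in LFA1-hi (−1.42, SE 0.17, 95% interval −1.81 to −1.02, adjusted p = 0.000613).

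Jund (chromosome 8, 70697739 to 70700616), the member of the Jun family that is expressed most steadily in resting cells, was at 44.2, 38.1 and 40.2 TPM in LFA1-hi. Its LFA1-lo libraries had 77.6, 84.8 and 60.6 TPM, again without overlap. It was 1.79-fold lower in LFA1-hi (−0.84, SE 0.14, 95% interval −1.15 to −0.53, adjusted p = 0.00194).

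Jun (chromosome 4, 95049036 to 95052222) encodes c-Jun, the classical partner of c-Fos. Its level was 104, 107 and 97.7 TPM in LFA1-hi, against 88.2, 84.4 and 80.0 TPM in LFA1-lo. The difference was small beside those of Junb and Jund, but the libraries of each group lay close together. Jun was 1.24-fold higher in LFA1-hi (0.31, SE 0.08, 95% interval 0.14 to 0.48, adjusted p = 0.0129). This call was lost without LFA1-hi replicate 1 (adjusted p = 0.0601) or LFA1-hi replicate 2 (adjusted p = 0.0588), where the log2 fold change was 0.30 and 0.31; over its alternatives the adjusted p ran from 0.00146 to 0.0601. In the annotation, noncoding antisense genes overlap Jun and Jund (Junos and Gm11175), and whether counting used the read strand is not given in the sources used here.

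Atf3 (chromosome 1, 191170296 to 191183333) encodes a stress-induced bZIP factor that dampens inflammatory genes in macrophages. It was at 158, 171 and 187 TPM in LFA1-hi and at 342, 498 and 274 TPM in LFA1-lo. The groups did not overlap, and LFA1-lo replicate 2 was 61.7% above the mean of the other LFA1-lo libraries. Atf3 was 2.13-fold lower in LFA1-hi (−1.09, SE 0.22, 95% interval −1.61 to −0.58, adjusted p = 0.00885), and without LFA1-lo replicate 2 its log2 fold change was −0.80 (adjusted p = 6.35e-05; adjusted p over its alternatives ran from 5.47e-07 to 0.0333).

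Batf (chromosome 12, 85686720 to 85709087) was at 8.25, 6.11 and 6.61 TPM in LFA1-hi and 3.99, 4.05 and 6.68 TPM in LFA1-lo. LFA1-lo replicate 3 reached the level of the LFA1-hi libraries (log2 fold change 0.53, SE 0.35, 95% interval −0.26 to 1.32, adjusted p = 0.287). Batf3 (chromosome 1, 191098414 to 191108943) was at 3.16, 4.01 and 5.80 TPM in LFA1-hi and 2.44, 3.36 and 2.59 TPM in LFA1-lo, overlapping in 1 library of each group (0.63, SE 0.47, 95% interval −0.43 to 1.70, adjusted p = 0.340). Batf3 rested on 62 counts over the LFA1-hi libraries and 38 over the LFA1-lo libraries, and Batf on 140 and 93. Both intervals include 0 and are wide, so these data do not show whether either gene differs.

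**Figure D2:**
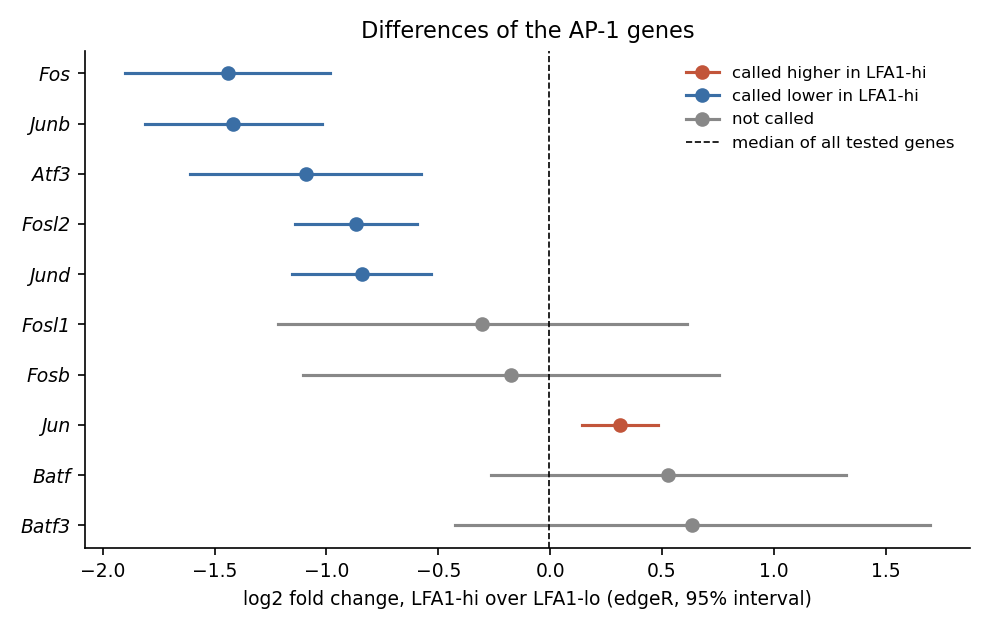
Log2 fold change of each AP-1 gene, LFA1-hi over LFA1-lo, from edgeR, with 95% intervals. Fos, Junb, Atf3, Fosl2 and Jund lie between −1.44 and −0.84 with intervals below 0, Jun lies at 0.31, and the intervals of Fosl1, Fosb, Batf and Batf3 include 0 (dashed line, median of all tested genes at −0.0047).

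On the TPM scale Atf3 was the highest AP-1 gene in both groups, with 5.33% of the 15068 detected genes above it in LFA1-hi and 2.54% in LFA1-lo. In LFA1-hi the order after Atf3 was Jun, Junb, Fos, Jund, Fosl2, Batf, Fosl1, Batf3 and Fosb. Of these neighbours only Fosl1 and Batf3 overlapped in range. In LFA1-lo the order was Atf3, Junb, Fos, Jun, Jund, Fosl2, Fosl1, Batf, Batf3 and Fosb. There Junb overlapped Fos, Jun overlapped Jund and Fosl1 overlapped Batf. Jun thus stood above Junb, Fos and Jund in every LFA1-hi library, while Junb and Fos stood above Jun in every LFA1-lo library.

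The 10 genes together summed to 475, 473 and 487 TPM in LFA1-hi and 901, 1143 and 711 TPM in LFA1-lo. No LFA1-hi library came near the lowest LFA1-lo library (479 ± 7.73 against 918 ± 216 TPM, mean ± SD, n = 3 each; exact two-sided permutation p = 0.1, the smallest that 3 libraries against 3 allow). The shares below each had this same smallest p, in exact permutation tests, unless a value is given.

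Jun held 48.3%, 52.1% and 48.8% of the Jun family's TPM in LFA1-hi, against 25.2%, 22.7% and 29.9% in LFA1-lo. Junb held 31.2%, 29.5% and 31.1% in LFA1-hi and 52.6%, 54.5% and 47.4% in LFA1-lo. By TPM the main Jun transcript was therefore Jun in each LFA1-hi library and Junb in each LFA1-lo library. In CPM, which do not divide by length, Jun lay above Junb in LFA1-lo replicate 3 as well (131 against 113 CPM). The ratio of Junb to Jun was 0.646, 0.566 and 0.637 in LFA1-hi and 2.09, 2.40 and 1.59 in LFA1-lo.

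Of the 10 genes' TPM, the Fos family took 18.4% ± 0.606 in LFA1-hi and 22.8% ± 0.391 in LFA1-lo, and the Jun family 43.3% ± 2.10 in LFA1-hi and 36.3% ± 3.33 in LFA1-lo (mean ± SD, n = 3 each). Jun alone took 21.5% ± 1.36 in LFA1-hi and 9.47% ± 1.95 in LFA1-lo. The share of Atf3 and the Batf genes overlapped between groups (38.3% ± 2.60 and 40.9% ± 2.94, exact permutation p = 0.4). Within the Fos family, Fos held 64.3% ± 0.672 in LFA1-hi and 73.7% ± 1.88 in LFA1-lo, and Fosl2 held 29.2% ± 1.02 in LFA1-hi and 23.0% ± 2.28 in LFA1-lo. The summed Fos family was 0.421, 0.412 and 0.439 times the summed Jun family in LFA1-hi, against 0.581 to 0.714 times in LFA1-lo.

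**Figure D3:**
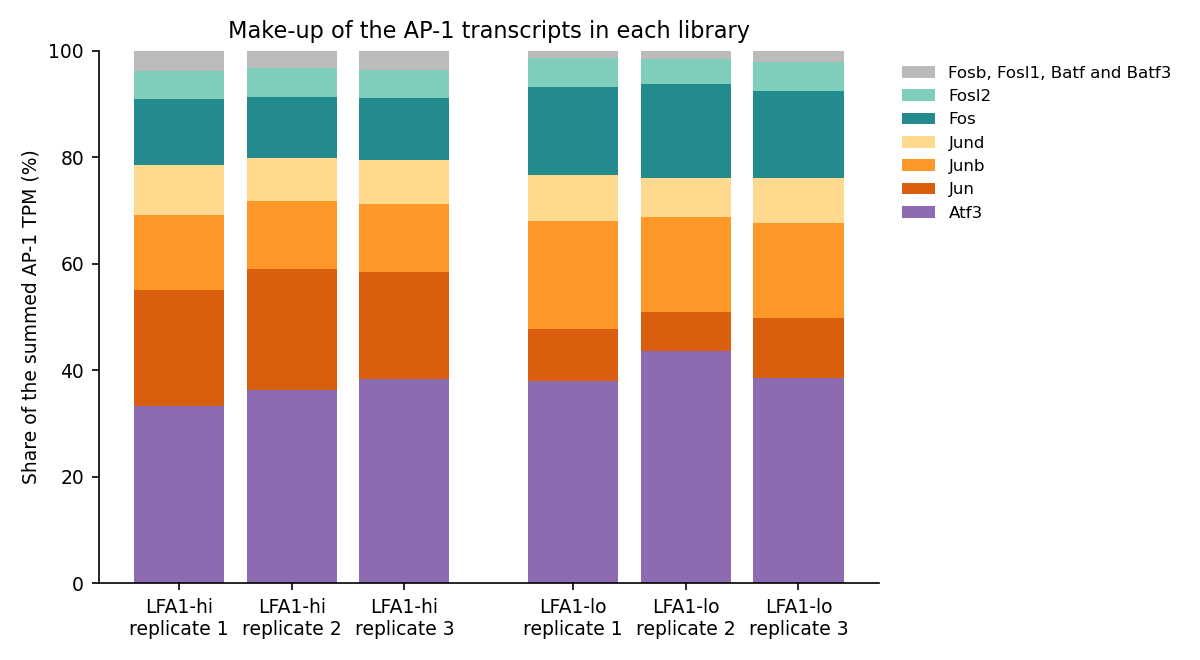
Share of the summed TPM of the 10 AP-1 genes held by each gene (%), in 1 bar per library, LFA1-hi left and LFA1-lo right. The band of Jun takes 20.0% to 22.7% in LFA1-hi bars and 7.39% to 11.2% in LFA1-lo bars, and the bands of Junb and Fos are narrower in each LFA1-hi bar than in any LFA1-lo bar.

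The genes that fell also shared an order among the LFA1-lo libraries. Fos, Fosl2, Junb, Jund and Atf3 were each highest in replicate 2 and lowest in replicate 3, while Jun was highest in replicate 1 (88.2 TPM) and Batf in replicate 3 (6.68 TPM). Replicate 2 exceeded the mean of the other LFA1-lo libraries by 51.9% for Fos, 30.4% for Junb, 22.7% for Fosl2 and 22.6% for Jund, and by 0.41% for Jun. Coefficients of variation in CPM for these 5 genes were 3.27% to 9.71% in LFA1-hi and 17.3% to 33.4% in LFA1-lo. Leaving out replicate 2 removed none of the 5 calls. The order was not particular to the family. Among early response genes outside it, Egr1, Egr2, Ier2, Nr4a2, Nr4a3, Dusp1, Dusp5, Zfp36, Btg2, Klf4 and Klf6 had this order by TPM. So did Myc, which was called higher in LFA1-hi. Egr3, Ier3, Ier5, Nr4a1, Dusp2 and Klf2 did not. The share of all tested genes with this order was not counted.

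Likeness of pattern was measured as the root mean square distance between log2 CPM profiles over the 6 libraries, each centred on its own mean, among 11208 genes with mean CPM of at least 1. The genes nearest to Fos, the largest fall, were Slc4a7, a bicarbonate transporter (0.051), Junb (0.087) and Pdgfb, a growth factor chain (0.096), against a median distance of 0.764. Atf3 ranked 34, Fosl2 126 and Jund 140 by distance from Fos. Nearest to Jun, the only called rise, were Pde8a (0.019), a phosphodiesterase, Vwa9 (0.025) and BC004004 (0.033), against a median of 0.275, with Fos at rank 10874. The difference between the groups enters these distances.

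Genes of the AP-1 loci can be set side by side. On chromosome 12, Fos, Jdp2 and Batf follow each other on the plus strand, with Jdp2 121.4 kb beyond Fos and Batf 46.8 kb beyond Jdp2. Jdp2, which encodes a Jun-binding repressor, was at 16.7, 17.4 and 15.5 TPM in LFA1-hi and 9.14, 12.2 and 10.1 TPM in LFA1-lo, with no overlap. It was higher in LFA1-hi (0.64, SE 0.18, adjusted p = 0.0211), whereas Fos was lower. That call was lost without any of the LFA1-hi libraries or without LFA1-lo replicate 1 (adjusted p = 0.0560 to 0.0790, against 0.00211 at the lowest over its alternatives). On chromosome 1 Batf3 and Atf3 lie 61.4 kb apart, with a log2 fold change of 0.63 that did not pass for Batf3 and −1.09 for Atf3.

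Among 21 other bZIP genes that can pair with AP-1 proteins or bind related sites, 2 were higher and 2 lower in LFA1-hi, with a median of −0.15. Over all tested genes 16.1% were higher and 15.6% lower, shares to set beside the counts of this and each list below. The lower genes were Bach1, a haem-sensing repressor (39.8 ± 1.40 TPM in LFA1-hi and 65.1 ± 6.83 TPM in LFA1-lo; −0.68, adjusted p = 0.000589), and Nfe2l2, the oxidative stress regulator Nrf2 (−0.45, adjusted p = 0.00123). Jdp2, described above, was among the higher genes. The higher calls numbered 0 without LFA1-hi replicate 1, 2 or 3, and 1 without LFA1-lo replicate 3. With LFA1-lo replicate 2 left out, 5 were higher and 6 lower. The other 17 did not pass, among them Atf4 and Cebpb, chosen after their values were seen (−0.03 and −0.10, adjusted p = 0.915 and 0.642).

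Of 24 MAP kinase genes and regulators upstream of AP-1, 2 were higher and 4 lower (median −0.15), beside 16.1% and 15.6% of all tested genes. Map3k8, the kinase Tpl2 that links Toll-like receptors to ERK, was at 7.71 ± 0.495 TPM in LFA1-hi and 13.5 ± 2.19 TPM in LFA1-lo (−0.78, adjusted p = 0.00525). Map3k1, an activator of the JNK pathway (−0.63, adjusted p = 0.00368), and Elk4, a partner of serum response factor on early response promoters (−0.49, adjusted p = 0.00172), were lower too. Map3k5, the stress kinase Ask1, was higher (0.46, adjusted p = 0.0258), but not without LFA1-hi replicate 1, 2 or 3 or on log2 TPM. The ERK kinase gene Mapk3 did not pass (−0.18, adjusted p = 0.193), nor did the JNK gene Mapk8 (−0.04, adjusted p = 0.862). Another JNK gene of the list, Mapk9, was called higher (0.24, adjusted p = 0.0406). Mapk3, Mapk8 and Mapk9 were chosen after their values were seen. The higher calls numbered 0 without LFA1-hi replicate 1, 2 or 3, and 1 without LFA1-lo replicate 1 or 3. With LFA1-lo replicate 2 left out, 3 were higher and 8 lower.

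Feedback genes of the MAP kinase pathway were mixed, with 2 of 5 tested genes higher and 1 lower (median 0.04). The phosphatase genes Dusp1, Dusp2 and Dusp5 were not in this list and were counted with the early response genes below. Dusp2 (−1.44, adjusted p = 0.00314) and Dusp5 (−2.28, adjusted p = 0.00508) were lower, and Dusp1 did not pass (−0.54, adjusted p = 0.203). These phosphatase genes were named after their values were seen. Dusp6, the phosphatase of ERK, was at 120 ± 6.56 TPM in LFA1-hi and 56.7 ± 12.3 TPM in LFA1-lo (1.11, adjusted p = 0.000403). Spred2 was higher as well (0.52, adjusted p = 0.0105; not without LFA1-hi replicate 2, adjusted p = 0.0519), and Spred1, another inhibitor of Ras signalling, was lower (−0.53, adjusted p = 0.00153).

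Early response genes outside the AP-1 family were lower in 11 of 18 cases and higher in 2 (median −1.08, also with Nr4a3 at its bound), and 11 or 12 were lower in each fit without a library. Higher calls numbered 1 without LFA1-hi replicate 1, 2 or 3 or LFA1-lo replicate 1. Nr4a3 had 0 counts in LFA1-hi and 50 over the LFA1-lo libraries, which is at least 17.3-fold lower, taking 3 counts over the group as the floor. The zinc finger genes Egr3 (−4.27, adjusted p = 5.32e-05) and Egr1 (−2.50, adjusted p = 0.000152) and the nuclear receptor gene Nr4a1 (−2.70, adjusted p = 9.81e-06) had larger differences than any AP-1 gene. Of 7 heat shock genes 2 were higher and 1 lower (median −0.12). Hspa1b, an inducible Hsp70 gene with a near-identical copy, was lower (−2.34, adjusted p = 0.00764). The copy, Hspa1a, did not pass (−0.74, adjusted p = 0.294). Expected counts of both genes were not whole, so reads may be shared between them. The rises of Hsp90aa1 (0.65, adjusted p = 0.0325) and Dnajb1 (0.36, adjusted p = 0.0292) were lost when certain libraries were left out, with 0 higher calls without LFA1-hi replicate 1 or 2 or LFA1-lo replicate 1 or 3, 1 without LFA1-hi replicate 3, and 2 lower calls without LFA1-lo replicate 3.

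Textbook AP-1 target genes went both ways, with 5 of 19 tested higher and 7 lower (median −0.19, and 0.12 without LFA1-lo replicate 2). Mmp9, a matrix protease, was at 1.02, 0.20 and 0.46 TPM in LFA1-hi and 11.9, 92.9 and 10.0 TPM in LFA1-lo, where replicate 2 was far above the others. Without that library its log2 fold change was −4.19 (adjusted p = 2.99e-05, the lowest over its alternatives, which reached 0.133), against −6.04 with all 6 (adjusted p = 0.0384). The call was lost without LFA1-hi replicate 2 or 3 or LFA1-lo replicate 3, with no filter, and with DESeq2 or limma voom. Il1b, encoding interleukin-1 beta, was at 0.00, 0.31 and 0.27 TPM in LFA1-hi and 6.02, 10.1 and 3.75 TPM in LFA1-lo (−5.04, adjusted p = 0.000912). It had only 6 counts over the LFA1-hi libraries and 200 over the LFA1-lo libraries, so the size is poorly fixed. Over its alternatives the log2 fold change of Il1b ran from −5.48 to −2.60, and the call was kept. Timp1, a protease inhibitor (−2.46, adjusted p = 0.0261), rested on 16 counts over the LFA1-hi libraries and 85 over the LFA1-lo libraries. Its log2 fold change was −1.49 without LFA1-lo replicate 2. Its call was lost without that library, without LFA1-hi replicate 1, 2 or 3, and with limma voom. Ccl2, a monocyte chemoattractant, was higher, at 616 ± 43.0 TPM in LFA1-hi and 160.4 ± 27.6 TPM in LFA1-lo (1.95, adjusted p = 3.05e-05). The lower calls numbered 3 without LFA1-hi replicate 2 or 3. Mmp3 and Il6 had 0 counts in all 6 libraries.

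Osteoclast markers, which include Mmp9 of the targets, went both ways. Their summed level was 101 to 113 CPM in LFA1-hi and 146 to 406 CPM in LFA1-lo, with Calcr at 0 counts. Of 6 tested, Acp5 was higher and Dcstamp and Mmp9 were lower (named after their values were seen), while Ctsk, Ocstamp and Nfatc1 did not pass. Neutrophil markers summed to 3.76 to 5.09 CPM in LFA1-hi and 8.12 to 28.3 CPM in LFA1-lo (7 genes, with S100a9 and Ltf lower of 3 tested, likewise named after their values were seen). The part of these markers in the AP-1 differences was not tested.

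Genes grouped as Batf partners and induced factors were lower in 5 of 7 cases and higher in 0 (median −0.46). The lower calls numbered 3 without LFA1-hi replicate 1, 2 or 3 or LFA1-lo replicate 1. Batf2, which did not pass, was also counted among the 21 other bZIP genes. Irf4, a partner of Batf on composite sites, was at 1.22 ± 0.200 TPM in LFA1-hi and 4.29 ± 0.404 TPM in LFA1-lo (−1.78, adjusted p = 0.000342). Prdm1, the repressor Blimp-1, was 4.76 ± 0.979 TPM in LFA1-hi and 15.7 ± 0.621 TPM in LFA1-lo (−1.69, adjusted p = 9.42e-05). Spi1, the macrophage factor PU.1 (−0.46, adjusted p = 0.00447), and Bcl6, a repressor (−0.43, adjusted p = 0.0181), were also lower. The Bcl6 call was lost without LFA1-hi replicate 1, 2 or 3 or LFA1-lo replicate 1. The 8 dendritic cell markers, the cells for which Batf3 is best known, summed to 0.672 to 1.85 CPM in LFA1-hi and 1.07 to 1.47 CPM in LFA1-lo, with Flt3 and Ccr7 at 0 counts. T and NK cell markers were at 0 counts for Cd3d, Cd3e, Cd3g, Ncr1 and Gzmb, and the 8 markers summed to 0.168 to 0.503 CPM in LFA1-hi and 3.64 to 5.23 CPM in LFA1-lo, with Cd4, which macrophages can express, lower in LFA1-hi. B cell markers summed to at most 3.02 CPM in LFA1-hi and 3.70 CPM in LFA1-lo, with Pax5 and Ebf1 at 0 counts. Mast cell and basophil markers summed to 0 CPM in LFA1-hi and at most 0.235 CPM in LFA1-lo, and stromal markers to at most 0.448 CPM in LFA1-hi and 1.34 CPM in LFA1-lo.

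**Figure D4:**
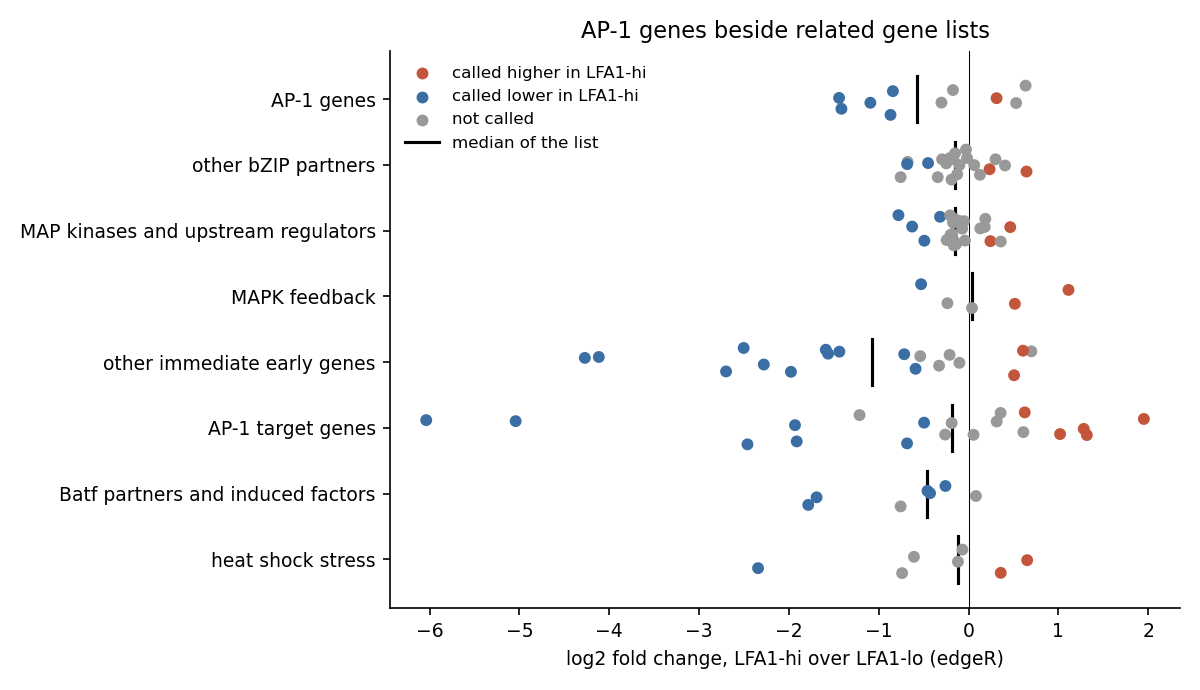
Log2 fold change, LFA1-hi over LFA1-lo, of each tested gene (points; vertical scatter is arbitrary) in the AP-1 family and 7 related lists, with black lines for list medians. The AP-1 median of −0.57 lies between that of other early response genes (−1.08) and those of other bZIP partners and MAP kinase genes (−0.15 each). Nr4a3 is placed at its bound.

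**Figure D5:**
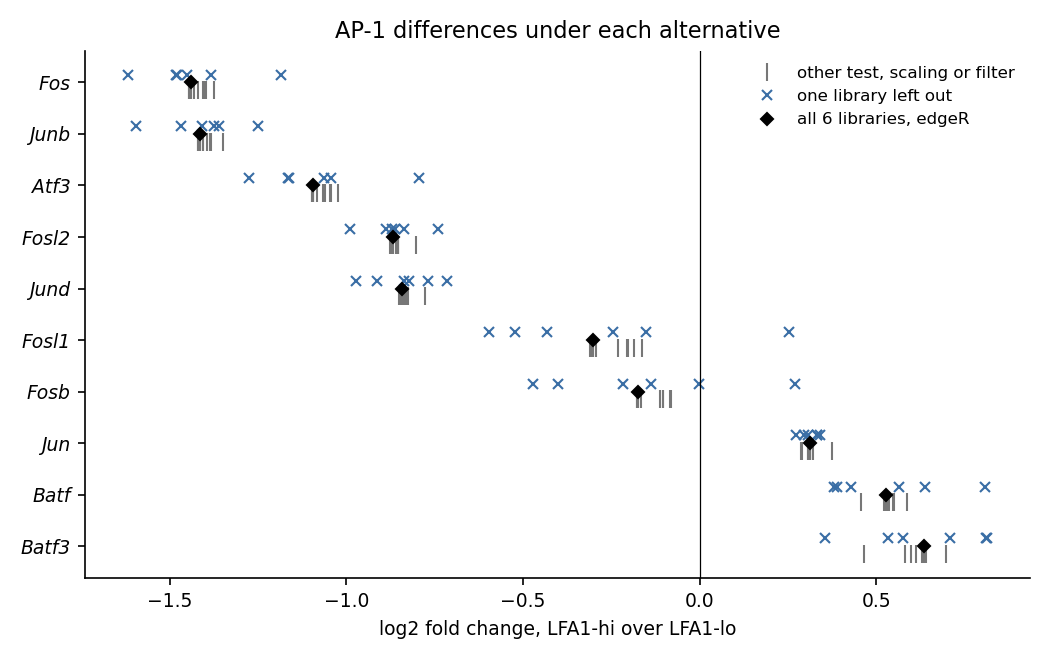
Log2 fold change of each AP-1 gene with all 6 libraries (diamonds), with 1 library left out (crosses) and under other tests, scalings and filters (ticks). Fos runs from −1.62 to −1.18, Junb from −1.59 to −1.25 and Jun from 0.27 to 0.37, while Fosb lies above 0 when LFA1-lo replicate 1 is left out, as does Fosl1 when LFA1-lo replicate 2 is left out.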

How the data were processed

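Per the labels' protocols, total RNA depleted of ribosomal RNA was sequenced on a NextSeq2000. Tools named in the submitters' processing notes are bcl2fastq, Trim Galore and RSEM, with the build GRCm38. Tool versions, the aligner and the strand setting were not given in the sources used here. Each deposited file holds, per the file headers, RSEM expected counts (estimated reads per gene on RefSeq transcripts, not normalized), with TPM and FPKM scaled by effective length.

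Between 5.53% and 6.06% of genes per library had fractional values, and all were rounded. After filterByExpr and TMM scaling (factors 0.956 to 1.034), edgeR 4.0.16 (R 4.3.3) gave robust quasi-likelihood tests, a step first tested on simulated data. In the simulation 45 of 100 planted 1.5-fold changes and 79 of 100 planted 2-fold changes were called. Of its 135 calls, 11 were false. The planted genes were the only changes among 11560 tested there, a far smaller share than the 31.7% called in the data. These rates therefore need not carry over to the reported comparison. Adjusted p-values are over all 11692 tested genes. In all, 1883 genes were higher and 1822 lower in LFA1-hi, or 2294 and 1471 when scaled by library totals alone. Family shares were compared by exact permutation. The 95% intervals come from the edgeR fit and include the spread between libraries, and the 3-count floor covers counting error only. Alternatives used DESeq2 1.42.0, limma 3.58.1, other scalings and filters, and left-out libraries. Members and lists were chosen with earlier results of these data known. Named genes were all 10 members, up to 4 called genes with the largest change per list (1 such gene is not reported here), and the 3 nearest patterns to Fos and Jun. Coordinates are from RefSeq on GRCm38, matched by transcript accession.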

Additional observations from a re-analysis of the deposited data

How the results depend on the processing

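Across all alternatives that gave a value, including a threshold of 0.01, Fos, Fosl2, Junb, Jund and Atf3 kept their direction and their call in 18 of 18 each, and 5 members were called lower throughout. Jun kept its direction in 18 of 18 and its call in 15, so the members called higher numbered 0 at a threshold of 0.01 and 0 or 1 over the fits without a library. Genes called numbered 3705 in the reported fit, 2024 at a threshold of 0.01, and 2288 to 5032 with a library left out. The difference in the Fos family share of −4.43 percentage points was −5.22 on CPM, which do not divide by length, and −9.39 without Atf3, which removes the largest part of the sum. The Jun family share and the summed TPM moved by less than the spread between libraries under each alternative run. Counts for the other lists without each library were added after seeing the data. Fosb, Fosl1, Batf and Batf3 were not called in any of 17 alternatives each. They had 38 to 223 counts per group, and the part of depth was not tested.

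With the replicate number as a replicate block 3253 genes were called. Same-numbered libraries did not deviate together (correlations of deviations from group means −0.0718 to 0.0370), and none of the 3 LFA1-hi libraries correlated best with its own number, so the numbers were not taken as pairs.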
